A study of Mus musculus with 19 samples.

Results

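Transcripts that mark the choroid plexus epithelium were followed through 6 libraries of mouse hippocampus taken after bone marrow transplantation. The set held 10 genes, Ttr, Folr1, Kl, Kcne2, Sostdc1, Clic6, Prlr, Otx2, Aqp1 and Slc4a5, and all 10 were among the 15634 genes of the hippocampus table. They were chosen by name, with earlier results of these data known. Every recipient mouse had 1100 cGy of total-body irradiation in split doses and 5000000 marrow cells depleted of T cells (TCD). Some recipients also had 500000 T cells from spleen, the graft that gives chronic graft-versus-host disease (GVHD), in which donor T cells attack host tissues. Hippocampus was taken at day 80, with 3 libraries from GVHD mice and 3 from TCD mice, which the series design names as free of GVHD. A second table held 13 libraries of cells sorted from brain at day 70, 6 of donor macrophages and 4 of host microglia from GVHD mice, and 3 of host microglia from TCD mice. Strain, genotype, age and sex were not given in the labels, and no untransplanted mice were among the groups. The comparison addressed whether hippocampus of mice with GVHD differed from that of transplanted mice without it.

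The choroid plexus is a folded epithelium in the brain ventricles that makes cerebrospinal fluid. Its cells move ions and water from blood to fluid, carry hormones and vitamins across, and secrete proteins into the fluid. Ttr, which encodes transthyretin, is the best known mark of these cells in brain. In the lateral ventricle the plexus lies against the hippocampus and is attached along its fimbria. The labels do not say how the hippocampi were dissected. In bulk libraries, more choroid plexus tissue and more RNA per choroid plexus cell cannot be told apart.

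RefSeq promoter windows of 300 bases on GRCm38.p6 were at hand for 6 of the 10 genes, Kl, Aqp1, Slc4a5, Otx2, Prlr and Kcne2, with 12 windows in all. The windows are shown because the genes moved together, and they were searched on both strands for 4 short motifs. These were TAATCC (the OTX core), TAATTA (a LIM homeodomain core that reads the same on both strands), GTAAACA (a FOX core) and GTTGCC (an RFX half-site). For each of the 4 genes with a match, the window with the most matches, or the only one with a match, is given 5′ to 3′ along the gene's strand, with matches in capitals. They lie at chr6:55336049-55336348 on the plus strand (Aqp1), chr16:92292139-92292438 on the plus strand (Kcne2), chr14:48665060-48665359 on the minus strand (Otx2) and chr15:10223656-10223955 on the plus strand (Prlr).
Aqp1: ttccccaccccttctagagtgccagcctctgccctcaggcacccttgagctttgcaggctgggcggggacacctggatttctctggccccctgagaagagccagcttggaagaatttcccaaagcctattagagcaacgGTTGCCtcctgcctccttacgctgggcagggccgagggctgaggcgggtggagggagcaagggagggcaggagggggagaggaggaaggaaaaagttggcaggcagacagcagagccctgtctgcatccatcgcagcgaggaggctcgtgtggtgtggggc
Kcne2: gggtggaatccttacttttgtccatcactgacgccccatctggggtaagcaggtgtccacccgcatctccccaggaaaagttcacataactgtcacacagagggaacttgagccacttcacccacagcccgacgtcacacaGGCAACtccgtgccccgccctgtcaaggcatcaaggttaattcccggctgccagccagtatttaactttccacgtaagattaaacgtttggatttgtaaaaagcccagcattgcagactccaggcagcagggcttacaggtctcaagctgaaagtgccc
Otx2: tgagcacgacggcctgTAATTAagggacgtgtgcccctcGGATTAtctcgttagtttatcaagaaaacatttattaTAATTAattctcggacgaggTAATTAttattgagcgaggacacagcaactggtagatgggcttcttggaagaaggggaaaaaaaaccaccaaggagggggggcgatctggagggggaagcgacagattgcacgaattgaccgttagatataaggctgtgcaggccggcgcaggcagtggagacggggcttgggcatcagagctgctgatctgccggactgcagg
Prlr: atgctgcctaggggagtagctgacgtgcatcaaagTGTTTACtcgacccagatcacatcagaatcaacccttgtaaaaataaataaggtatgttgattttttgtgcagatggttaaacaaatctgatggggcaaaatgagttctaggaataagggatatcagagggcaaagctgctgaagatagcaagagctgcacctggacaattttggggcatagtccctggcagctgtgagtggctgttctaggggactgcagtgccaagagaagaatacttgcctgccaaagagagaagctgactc
The Aqp1 window held GTTGCC at position -111, and the Kcne2 window held it on the opposite strand at position -109. Positions are counted along the gene from the RefSeq start site of each window as position 0. That site need not be the gene start given with the coordinates below. The Aqp1 window ends before that gene start, and the Otx2 and Prlr windows shown lie inside those genes. The Prlr window at its gene start, chr15:10176988-10177287, had 0 matches. The Otx2 window held TAATTA at positions -234, -174 and -154 and TAATCC on the opposite strand at position -211. The Prlr window held GTAAACA on the opposite strand at position -215. Over all 32851 RefSeq windows of this length, TAATCC occurred in 7.06%, TAATTA in 5.29%, GTAAACA in 3.65% and GTTGCC in 12.5%. Among the 12 windows of these genes, the motifs occurred in 1, 2, 1 and 4 windows in the same order, so no motif was shared by more than 3 of the 6 genes. Of the 4 windows with GTTGCC, 2 are overlapping windows of Otx2 that hold 1 such site in common. The matches are a description of the letters only.

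The hippocampus values were normalised counts on a scale with library totals from 982114.4 to 1078635.6, and an estimated 16673582 to 18546960 reads lay behind each library. The value of a single read was between 0.0540 and 0.0612, so that a gene with no read could lie anywhere up to 0.162 to 0.183 (3 reads). Among 14404 tested genes, 46 rose and 23 fell in GVHD at an adjusted p under 0.05 (limma). Hippocampal neuron markers summed to 1031 to 1218 in GVHD and 965 to 1507 in TCD libraries, and 0 of 12 tested passed in either direction (limma, 1 at an unadjusted p under 0.05). The labels do not say whether each library came from a single mouse, so p-values measure the spread between these libraries.

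Choroid plexus transcripts were far higher in GVHD than in TCD hippocampus. Ttr was the highest of them, with a mean of 2352 ± 1264 (SD, n = 3) in GVHD and 27.5 ± 27.8 (SD, n = 3) in TCD, a ratio of means of 85.6. TCD library 1 weighed most on that ratio, which was 203 without it and 62.6 to 112 without each of the other libraries. Of the 10 genes, 9 rose and Kl did not pass the test, beside 0.319% of all tested genes that rose (limma). The set was chosen with earlier results of these data known, so this count is not an independent result. All 10 had every GVHD library above every TCD library, as had 10.8% of all tested genes. Each gave an exact two-sided permutation p of 0.1, the smallest that 3 against 3 libraries allow. The median log2 fold change of the 10 genes was 3.47, and that of all tested genes was 0.00. Folr1, Kcne2, Otx2 and Aqp1 had no TCD library at or above 1 and entered the test only through their GVHD values. The 4 genes at or above 1 in all 6 libraries were Ttr, Kl, Sostdc1 and Prlr, of which 3 rose. Fold changes are on the log2(value + 1) scale, which understates the change of low genes.

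The adjusted p-values rested on particular libraries, though the direction did not. With GVHD library 1, GVHD library 3 or TCD library 2 left out, 0 genes of the set passed, whether or not low genes were filtered (limma). Without a filter, adjusted p then ran from 0.0647 to 0.193 and log2 fold changes from 1.96 to 6.51, and all 10 had an unadjusted p under 0.05 in each of these fits. With GVHD library 2 left out and no filter, 10 of 10 passed, with adjusted p up to 0.00915. Over the whole table, 1, 0 and 0 genes rose with these 3 libraries left out in turn (limma, 1806, 1828 and 1967 in either direction at an unadjusted p under 0.05). Without a variance trend in limma, 0 of 10 passed, and all 10 again had an unadjusted p under 0.05.

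**Figure D1:**
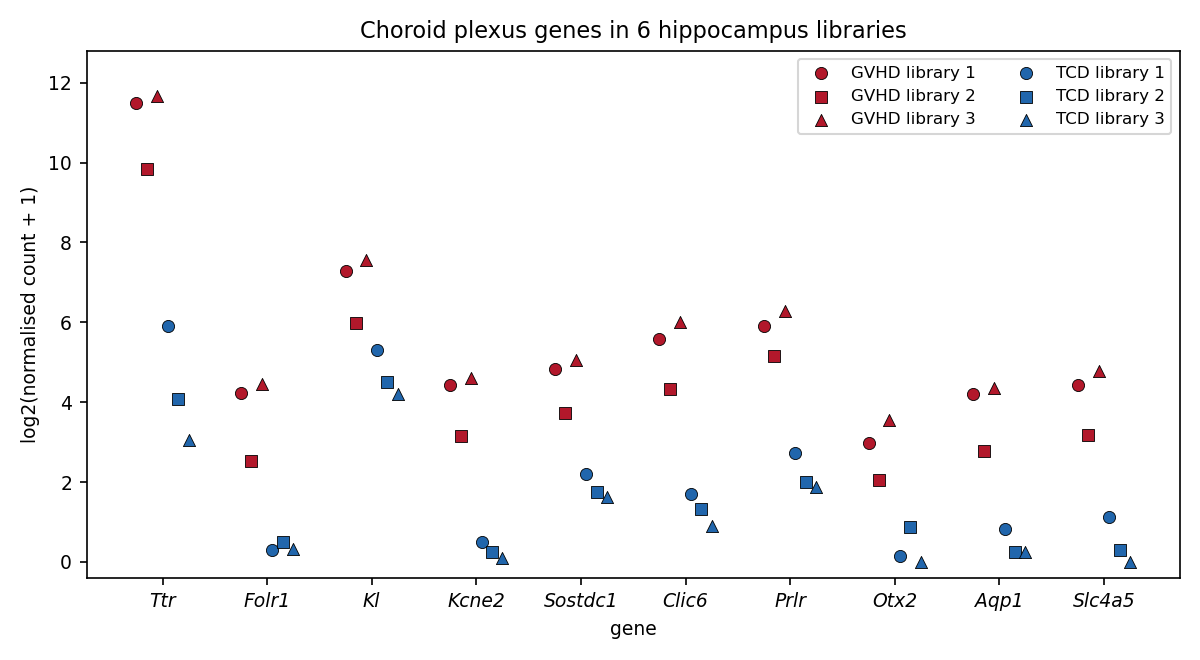
Each point is 1 hippocampus library, with the gene on the x axis and log2(normalised count + 1) on the y axis, GVHD in red and TCD in blue. In all 10 genes the 3 GVHD points lie above the 3 TCD points, and GVHD library 2 (red square) is the lowest of its group.

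Among carriers and receptors for transport, Ttr and Folr1 both rose. Ttr (ENSMUSG00000061808, GRCm38 chromosome 18, 20665280 to 20674321, plus strand) encodes the protein that carries thyroxine and, bound to retinol-binding protein, retinol. Its normalised counts were 2867, 912 and 3278 in GVHD libraries 1, 2 and 3, and 59.3, 15.9 and 7.34 in TCD libraries 1, 2 and 3. GVHD library 2 was the lowest of its group and still 15.4-fold above TCD library 1, the highest of the other group. The log2 fold change was 6.65 ± 0.70 (SE, adjusted p = 0.0160, limma), and it was 7.43 without TCD library 1 and 6.01 without TCD library 3. Folr1 (ENSMUSG00000001827, chromosome 7, 101858331 to 101870788, minus strand) encodes folate receptor alpha, which takes folate into cerebrospinal fluid. Its values were 17.9, 4.71 and 20.9 in GVHD and 0.233, 0.416 and 0.245 in TCD. The TCD values stood for an estimated 4, 7 and 4 reads, and GVHD library 2 was again low, with no overlap of the groups. The log2 fold change was 3.36 ± 0.44 (SE, adjusted p = 0.0285, limma). The call was lost at a pseudocount of 5, with the replicate number of the titles as a block, without the variance trend and without TCD library 2 (adjusted p = 0.0612 to 0.1203 over these, limma). Folr1 overlaps Anapc15 on the opposite strand, and reads of the overlap cannot be told apart if the counting, whose strand setting is not given in the sources used here, ignored strand.

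Genes that work with these carriers did not pass the test. Of 10 thyroid hormone genes tested, 0 passed (limma, 4 at an unadjusted p under 0.05), with a median log2 fold change of 0.09. Thra, a thyroid hormone receptor gene, was at 695 ± 47.0 in GVHD and 871 ± 94.9 in TCD (SD, n = 3 each). Of 8 folate genes tested, 0 passed (limma, 1 at an unadjusted p under 0.05). Ggh, the gamma-glutamyl hydrolase that trims folate polyglutamates, had a log2 difference of 0.58 ± 0.12 (SE, adjusted p = 0.0698, limma).

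The hormone and growth factor genes Prlr and Sostdc1 rose, and Kl was the gene of the set that did not pass. Prlr (ENSMUSG00000005268, chromosome 15, 10177238 to 10349180, plus strand) encodes the prolactin receptor. It overlaps Gm21973 on the same strand, for which no value is listed. The Prlr values were 59.1, 34.5 and 76.4 in GVHD and 5.64, 3.03 and 2.69 in TCD. The lowest GVHD library was 6.11-fold above the highest TCD library, and the log2 fold change was 3.57 ± 0.30 (SE, adjusted p = 0.0143, limma). Sostdc1 (ENSMUSG00000036169, chromosome 12, 36314139 to 36318452, plus strand) encodes a secreted protein that binds BMPs and modulates WNT signalling. Its values were 27.6, 12.1 and 32.1 in GVHD and 3.61, 2.38 and 2.08 in TCD. GVHD library 2 was 3.37-fold above TCD library 1, and the log2 fold change was 2.67 ± 0.33 (SE, adjusted p = 0.0195, limma). Kl (ENSMUSG00000058488, chromosome 5, 150952607 to 150993817, plus strand) encodes klotho, a coreceptor for FGF23 that also exists as a shed form. Its values were 156, 61.8 and 188 in GVHD and 38.8, 21.8 and 17.3 in TCD. The groups did not overlap, but the gap between GVHD library 2 and TCD library 1 was only 1.59-fold. Kl had a log2 difference of 2.27 ± 0.41 (SE, adjusted p = 0.0577, limma), and it passed without GVHD library 2 or TCD library 1 (adjusted p = 0.0119 and 0.0474, limma). Its TCD mean was 19.2% of its GVHD mean, the highest such share of the set, where Ttr had the lowest at 1.17%.

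Among genes that act with these receptors, 0 of 8 tested prolactin pathway genes passed (limma, 2 at an unadjusted p under 0.05), and Jak2, the kinase of the receptor, was at 46.8 ± 2.08 in GVHD and 43.5 ± 4.62 in TCD (SD, n = 3 each). Of 12 BMP and WNT genes tested, 0 passed (limma, 3 at an unadjusted p under 0.05), the one with the smallest p being Lrp6, a WNT coreceptor, at 0.32 ± 0.10 on the log2 scale (SE, adjusted p = 0.162, limma). Of 6 FGF receptor, ligand and sheddase genes tested, 0 passed (limma, 1 at an unadjusted p under 0.05). Fgfr1, the receptor that pairs with klotho, was at 124 ± 3.57 in GVHD and 134 ± 32.9 in TCD (SD, n = 3 each).

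All 4 ion and water transport genes rose. Kcne2 (ENSMUSG00000039672, chromosome 16, 92292389 to 92298129, plus strand) encodes a small subunit that sets the gating of potassium channels such as Kcnq1. Its values were 20.5, 7.83 and 23.5 in GVHD and 0.407, 0.178 and 0.0612 in TCD. The TCD values were an estimated 7, 3 and 1 reads, against 138 reads in GVHD library 2, and the log2 fold change was 3.79 ± 0.35 (SE, adjusted p = 0.0143, limma). Clic6 (ENSMUSG00000022949, chromosome 16, 92485736 to 92541243, plus strand) belongs to the chloride intracellular channel family. It overlaps 2410124H12Rik on the same strand, for which no value is listed. The Clic6 values were 46.7, 19.0 and 63.8 in GVHD and 2.27, 1.48 and 0.856 in TCD. GVHD library 2 was 8.36-fold above TCD library 1, and the log2 fold change was 4.00 ± 0.40 (SE, adjusted p = 0.0143, limma). Aqp1 (ENSMUSG00000004655, chromosome 6, 55336432 to 55348555, plus strand) encodes the water channel of the apical membrane. Its values were 17.4, 5.90 and 19.3 in GVHD and 0.756, 0.178 and 0.183 in TCD. TCD libraries 2 and 3 each held an estimated 3 reads, and the log2 fold change was 3.35 ± 0.39 (SE, adjusted p = 0.0188, limma). Slc4a5 (ENSMUSG00000068323, chromosome 6, 83219828 to 83304945, plus strand) encodes a sodium bicarbonate cotransporter of the same membrane. Its values were 20.5, 8.0 and 26.4 in GVHD and 1.16, 0.238 and 0 in TCD. TCD library 3 had no read, which allows a value up to 0.183, and the log2 fold change was 3.65 ± 0.42 (SE, adjusted p = 0.0188, limma).

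Of 13 tested relatives of the water, bicarbonate and chloride genes, 0 passed (limma, 1 at an unadjusted p under 0.05), and their median log2 fold change was 0.09. Slc4a2, an anion exchanger of the basolateral membrane of this epithelium, came nearest at 1.14 ± 0.25 on the log2 scale (SE, adjusted p = 0.0812, limma). Of 5 tested channel genes that can pair with Kcne2, 0 passed (limma, 0 at an unadjusted p under 0.05). Kcnq1 was under the filter, at 0.108, 0.681 and 0.293 in GVHD and 0.233, 1.01 and 0.917 in TCD, where the groups overlapped.

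The transcription factor gene Otx2 (ENSMUSG00000021848, chromosome 14, 48657677 to 48673819, minus strand) is needed to form the choroid plexus, and its protein is secreted into the fluid. Its values were 6.91, 3.12 and 10.7 in GVHD and 0.116, 0.831 and 0 in TCD. It was the lowest of the set in each GVHD library, and TCD library 2, with an estimated 14 reads, was its highest TCD library. The log2 fold change was 2.52 ± 0.38 (SE, adjusted p = 0.0414, limma), and the call was lost at a pseudocount of 0.1 or 5, with quantile scaling, with the replicate block, without the variance trend, and without TCD library 1, 2 or 3 (adjusted p = 0.0533 to 0.103 over these, limma). TCD library 3 of Otx2 had no read, which allows a value up to 0.183. Otx2 overlaps Otx2os1 on the opposite strand and Gm49154 on the same strand, and the table lists no value for either. Of 5 tested developmental transcription factor genes, 0 passed (limma, 2 at an unadjusted p under 0.05). Msx1, a homeodomain gene of the same epithelium, had a log2 difference of 1.34 ± 0.24 (SE, adjusted p = 0.0566, limma).

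Per kilobase of exon, Ttr stood apart from the other 9 genes. Its GVHD mean was 1983 ± 1066 normalised counts per kb (SD, n = 3), followed by Kl at 14.5 ± 7.02 and Sostdc1 at 13.5 ± 5.89. Clic6, Kcne2, Folr1 and Aqp1 came next at 11.02, 9.77, 6.32 and 5.40 per kb, then Prlr, Slc4a5 and Otx2 at 3.69, 3.15 and 1.64. Below Ttr, each neighbouring pair in this order had overlapping ranges over the GVHD libraries. Kl was above Sostdc1, and Folr1 above Aqp1, in 2 of 3 GVHD libraries, while the other neighbours kept their order in 3 of 3.

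The 10 genes moved nearly in proportion between the GVHD libraries. All 10 were highest in GVHD library 3, then library 1, then library 2, an order that 21.2% of all tested genes had. As a percentage of its value in GVHD library 3, each gene in GVHD library 1 lay between 64.4% (Otx2) and 90.1% (Aqp1), with a median of 84.2%. In GVHD library 2 the range was 22.5% (Folr1) to 45.1% (Prlr), with a median of 30.5%. The median over all tested genes was 100.2% in library 1 and 99.95% in library 2, and 23.3% and 1.08% of tested genes lay at or under the highest of the set in libraries 1 and 2. Taken as the excess over the TCD mean, the medians were 82.4% for library 1 and 28.5% for library 2. The coefficient of variation between the 10 genes was 9.83% in GVHD library 1 and 19.1% in library 2. Prlr and Sostdc1 kept the most in GVHD library 2, at 45.1% and 37.8%, and Ttr and Folr1 the least, at 27.8% and 22.5%. The order differed for the excess over the TCD mean, where Prlr and Kcne2 kept the most, at 42.2% and 32.8%. By that measure Kl and Folr1 kept the least, at 22.2% and 21.4%. These shares come from the same 3 libraries as the fold changes and carry no test.

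**Figure D2:**
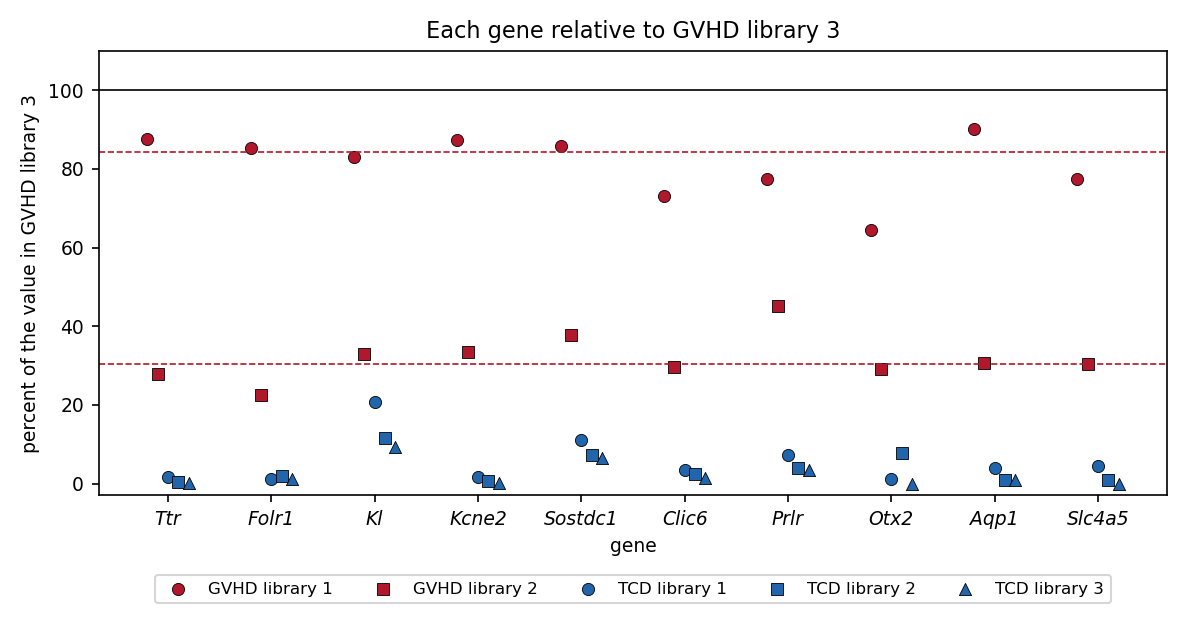
Each point gives a gene (x axis) in 1 library as a percentage of its value in GVHD library 3 (y axis), with dashed lines at the medians of 84.2% for GVHD library 1 and 30.5% for GVHD library 2. The GVHD points form bands near the dashed lines, and the TCD points lie at or under 20.7%, with Kl the highest.

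The TCD libraries held the same transcripts at low levels and in less even proportion. TCD library 1 was the highest of its group for 8 of 10 genes and TCD library 3 the lowest for 8 of 10, the exceptions being Folr1 and Otx2 at the top and Folr1 and Aqp1 at the bottom. The coefficient of variation between genes of the percentage of GVHD library 3 was 108%, 100.5% and 136% in TCD libraries 1, 2 and 3. Ttr made up 85.3% to 88.5% of the summed value of the set in the GVHD libraries. It made up 52.8% in TCD library 1, 34.2% in TCD library 2 and 23.9% in TCD library 3, and in the last 2 Kl was the larger, at 47.0% and 56.3%. Summed over the 10 genes, the TCD libraries stood at 112, 46.4 and 30.8, and their hippocampal neuron marker sums were 1507, 1116 and 965. Folr1, Kcne2, Otx2, Aqp1 and Slc4a5 rested on at most an estimated 20 reads in each TCD library.

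Other genes of the same epithelium were higher in GVHD as well. A list of 44 such genes, chosen with earlier results of these data known, had 38 tested. Of these, 11 rose and 0 fell (limma), beside 0.319% of all tested genes that rose. All 38 had a positive log2 fold change, as had 7340 of all 14404 tested genes, and the median of the 38 was 1.28. The 11 were F5, Kcnj13, 1500015O10Rik, Enpp2, Col8a2, Mfrp, Col8a1, Tmem72, Cldn2, Ace and Cab39l. Of the 11, Col8a2, Tmem72 and Cldn2 had no TCD library at or above 1 and entered the test only through their GVHD values. Enpp2, the enzyme autotaxin, was at 1185 ± 545 (SD, n = 3) in GVHD and 161 ± 15.0 in TCD (SD, n = 3). F5, coagulation factor V, rose by 4.21 ± 0.41 on the log2 scale (SE, adjusted p = 0.0143, limma), and Kcnj13, a potassium channel, by 3.36 ± 0.36 (SE, adjusted p = 0.0161, limma). Cldn2, a tight junction claudin, was at 15.2 ± 8.87 in GVHD and 0.708 ± 0.402 in TCD (SD, n = 3 each). The 11 genes had a median of 33.4% of GVHD library 3 in GVHD library 2, with a range of 19.8% to 64.2%, and GVHD library 2 was the lowest of its group in 37 of 38 tested. TCD library 1 was the highest of its group for 3 of these 11 genes, against 8 of the 10, and the lowest for 4 of the 11. Over the 38 tested, TCD library 1 was the highest for 9 and the lowest for 21. Atp1b1, a sodium pump subunit that neurons also express, had the smallest difference, 0.08 on the log2 scale. With GVHD library 1, GVHD library 3 or TCD library 2 left out, 0 of these genes passed (limma, 24, 25 and 34 at an unadjusted p under 0.05), and with GVHD library 2 left out 19 of 33 did.

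**Figure D3:**
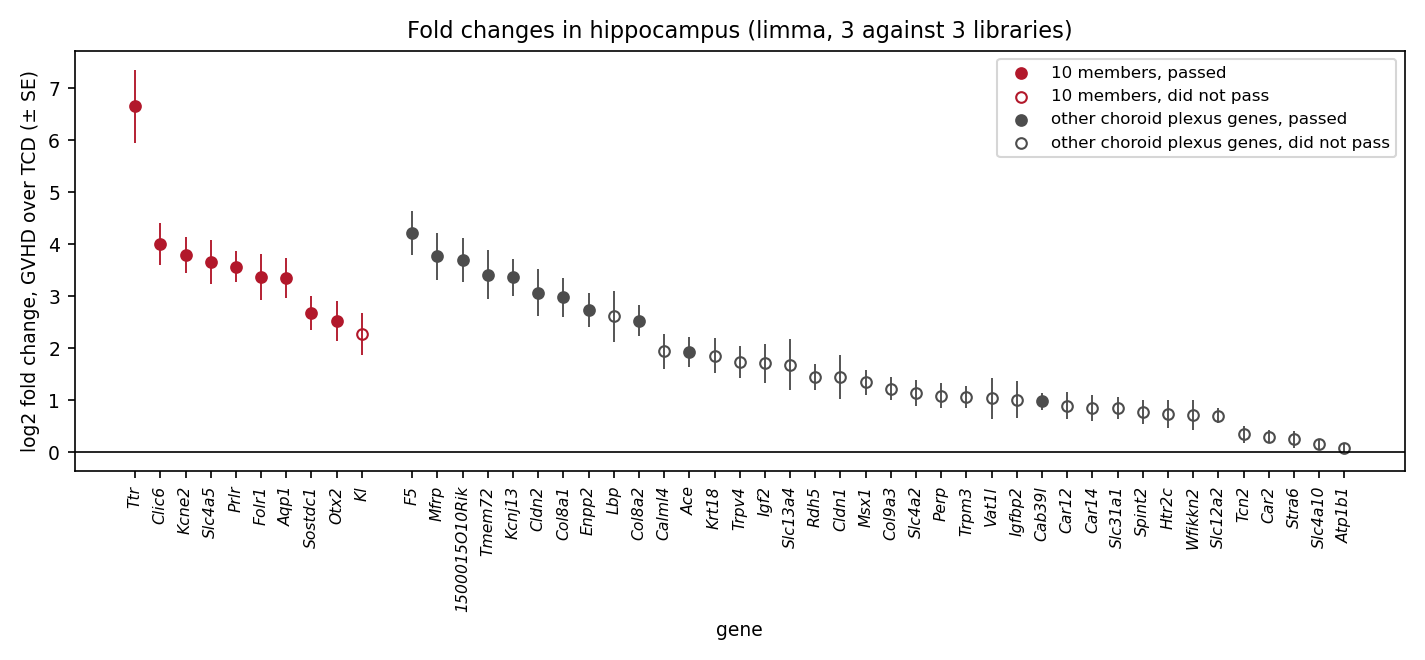
Points give the log2 fold change of GVHD over TCD from limma on the y axis, with bars of 1 SE, for the 10 genes (red) and the other tested choroid plexus genes (grey), named on the x axis. Filled points passed the test at an adjusted p under 0.05, and every point lies above 0, from 0.08 (Atp1b1) to 6.65 (Ttr).

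Of the 46 genes that rose in the whole table, 9 were of the set, 11 were of the other choroid plexus list and 26 were in neither. By the root-mean-square distance of centred log2 profiles over the 6 libraries, the genes nearest to the median profile of the set were Tmem72 (0.16), 1500015O10Rik (0.20), Cldn2 (0.30), Abca4 (0.31), Kcnj13 (0.32), Mfrp (0.35), Col8a1 (0.40) and F5 (0.42). Of these 8 genes, 7 were in the choroid plexus list, as were 14 of the nearest 20. That list held 38 of the 14404 tested genes. Both the list and the set were chosen with earlier results of these data known, so this overlap is not an independent result. Of the 8, Abca4, a lipid transporter best known from photoreceptors, was the only gene outside the list. Its values were 17.0, 8.23 and 20.004 in GVHD and 1.10, 0.831 and 0.856 in TCD. It followed the same library order in GVHD, with library 2 at 41.1% of library 3. Within the set, Aqp1 lay nearest to the median profile at 0.08, Kl and Otx2 lay at 0.63 and 0.62, and Ttr lay far off at 1.71, at rank 1926 among all tested genes. These distances are on the log2(value + 1) scale, which understates the change of low genes more than that of Ttr. With no pseudocount, the ratio of means was 85.6 for Ttr, 80.1 for Kcne2 and 5.21 for Kl. As a percentage of GVHD library 3, Ttr was at 87.5% in GVHD library 1 and 27.8% in library 2, near the medians of the set.

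Markers of tissues that border the hippocampus were compared beside the set. Of 9 tested ependymal genes, which mark the ciliated lining of the ventricles, 0 passed (limma, 4 at an unadjusted p under 0.05), all 9 had a positive log2 difference and the median was 0.74. Their sums were 27.4 to 49.9 in GVHD and 12.3 to 25.2 in TCD without overlap, and GVHD library 2 was the lowest of its group. The 3 with the smallest p were Dnah11, Mia and Cfap65, with log2 differences of 1.22, 1.14 and 1.18 (adjusted p = 0.0867, 0.0928 and 0.147, limma). These 3 of the 9 had every GVHD library above every TCD library. Mia had no TCD library at or above 1 and entered the test only through its GVHD values. Foxj1, which drives motile cilia, was at 7.94 ± 3.07 in GVHD and 4.27 ± 2.04 in TCD (SD, n = 3 each), and its groups overlapped. Meningeal and stromal genes summed to 234 to 477 in GVHD and 114 to 240.5 in TCD, with overlap, and 0 of 11 tested passed (limma, 4 at an unadjusted p under 0.05). Igf2 and Igfbp2 are also in the choroid plexus list, and without them the sums were 182.6, 123 and 111 in GVHD and 57.7, 147 and 126 in TCD. Igf2, the one with the smallest p, was at 178 ± 82.7 in GVHD and 50.2 ± 13.9 in TCD (SD, n = 3 each). Thalamic, striatal and endothelial lists had medians of 0.16, -0.13 and -0.11 on the log2 scale, with 0 of 10, 0 of 8 and 0 of 9 tested genes passing (limma, 2, 1 and 2 at an unadjusted p under 0.05). The part of ependymal or meningeal tissue in the rise of the set was not tested.

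**Figure D4:**
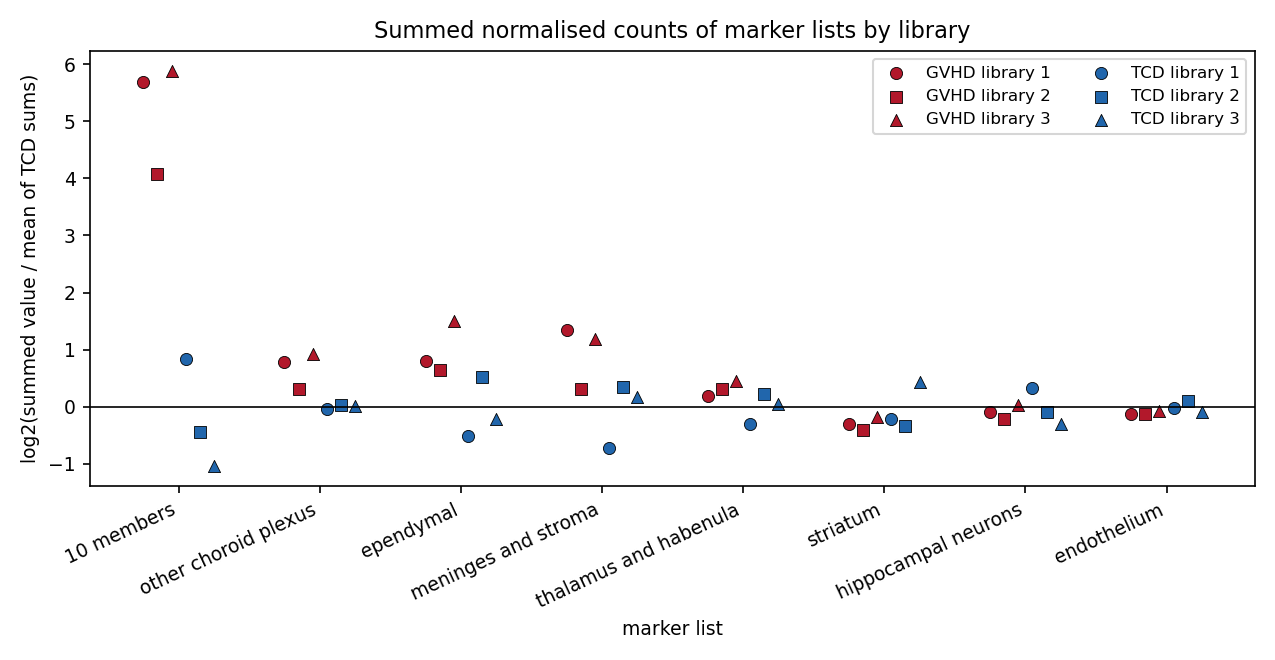
For each marker list on the x axis, the y axis gives the log2 ratio of its summed normalised count in 1 library to the mean of the 3 TCD sums, GVHD in red and TCD in blue. The 10 choroid plexus genes (labelled 10 members) lie far above 0 in GVHD, the ependymal list is higher by less, and hippocampal neuron, striatal and endothelial sums overlap between groups.

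None of the tested chromosomal neighbours of the set passed the test. The nearest listed gene without overlap on either side of each of the 10 genes gave 20 neighbours. Of these, 19 were tested, and 0 rose or fell (limma, 4 at an unadjusted p under 0.05). Anapc15, which overlaps Folr1, was therefore not among them. Their log2 fold changes ran from -0.31 (Lamtor1, beside Folr1) to 0.69 (Spef2, beside Prlr), with a median of 0.04. Spef2, a gene of motile cilia, was the one with every GVHD library above every TCD library, and 4 (Lamtor1, Rcan1, Dctn1 and Mthfd2) had every TCD library above every GVHD library, beside 13.2% of all tested genes. Mthfd2 starts 0.746 kb from Slc4a5 and was at 4.14 ± 0.33 in GVHD and 4.76 ± 0.07 in TCD (SD, n = 3 each). Kcne2 and Clic6 both rose and lie 187.6 kb apart on chromosome 16, with 4 protein-coding genes between them. Of these, Smim11 and Rcan1 were listed, with log2 differences of -0.02 ± 0.14 and -0.27 ± 0.09 (SE), and neither passed the test (adjusted p = 0.959 and 0.195, limma).

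**Figure D5:**
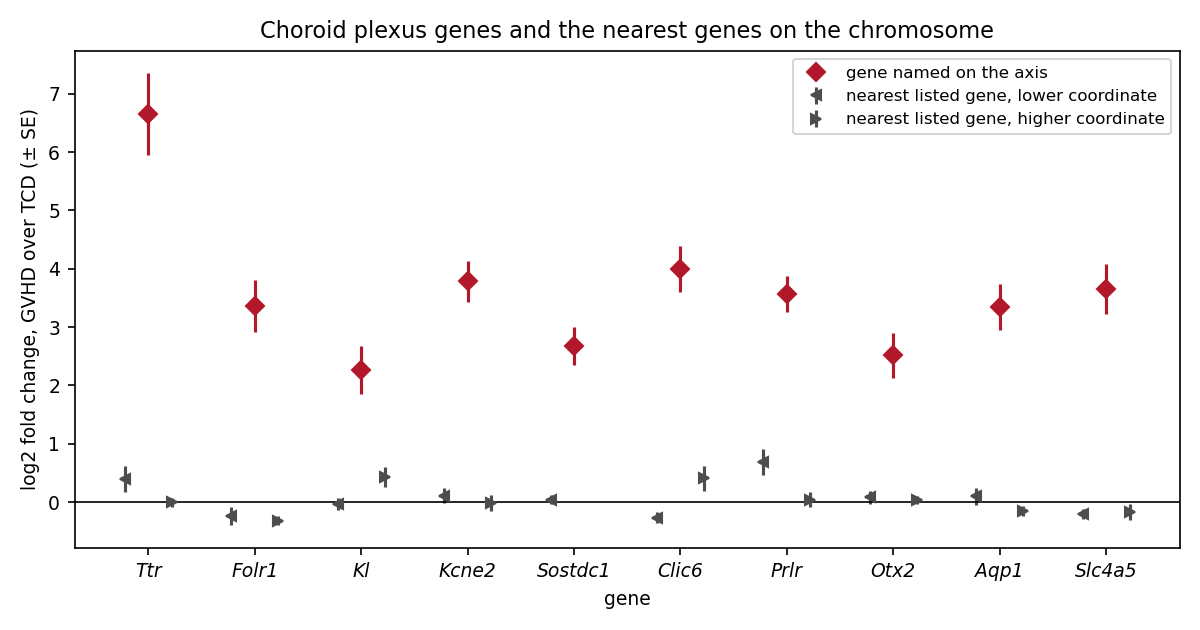
The y axis gives log2 fold changes of GVHD over TCD with bars of 1 SE. Red diamonds are the gene named on the x axis. Grey triangles are its nearest listed neighbours without overlap, at lower and higher coordinates. The red points lie between 2.27 and 6.65 and the grey ones between -0.31 and 0.69.

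In the sorted cells, Aqp1 was the one gene of the 10 that the table lists. Those libraries held an estimated 7901511 to 35844661 reads, and their scale is separate from that of the hippocampus table. Aqp1 ranged from 0.0779 to 1.54 with a median of 0.297 in the 6 libraries of donor macrophages. It was at 0.0780, 0.126, 0 and 0.113 in host microglia of GVHD mice, and the library at 0 allows a value up to 0.191 (3 reads). In host microglia of TCD mice it was at 0.173, 0.302 and 0.724. These values stood for at most 21 reads in a library, and Aqp1 was under the filter and not tested. With no filter, donor macrophages against GVHD host microglia gave a log2 difference of 0.46 ± 0.22 (SE, adjusted p = 0.117, limma), and GVHD against TCD host microglia gave -0.34 ± 0.26 (SE, adjusted p = 0.876, limma). Donor macrophages against TCD host microglia gave 0.12 ± 0.24 (SE, adjusted p = 0.744, limma). The microglial marker P2ry12 ran from 11136 to 18980 in the host libraries and from 682 to 1498 in the donor libraries. The 3 comparisons share libraries, so their values are not independent.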

How the data were processed

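RNA was measured in 6 hippocampus and 13 sorted-cell libraries, grouped by their titles. The authors deposited a normalised count signal whose library sums differed by group. In hippocampus they ran from 982114.4 to 988044.4 in GVHD and from 1019597.9 to 1078635.6 in TCD libraries. Over the sorted cells they ran from 890564.5 to 1090630.5, with every donor library above every host library. Per the submitters' processing notes, cutadapt 1.9, STAR 2.5.2a and RSEM 1.2.30 were used with GRCm38. The role of each tool, the scaling, the strand setting and the rule that chose the listed genes are not given in the sources used here. Identifiers were matched to symbols and coordinates in a GENCODE annotation of GRCm38, where 192 of 15634 hippocampus and 213 of 13783 sorted-cell identifiers had none. Values of 1 read were estimated from the steps between low values. Among the lowest values of each hippocampus library, 77.4% to 82.4% were whole multiples within 0.02 of a read, so whole reads were not recovered and no count model was run.

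Values were transformed as log2(value + 1). Genes at 1 or more in at least 3 libraries entered limma (version 3.58.1, R 4.3.3) with a variance trend and two-sided tests. P-values were adjusted across the whole table by the Benjamini-Hochberg method, with a threshold of 0.05. The hippocampus model held groups alone, and the sorted-cell model also held the API number of the titles. The script was tested on simulated data. Alternatives changed the pseudocount, filter, scaling, trend, block and libraries. The 10 genes and all lists were chosen with earlier results of these data known. Named genes are the 10, up to 10 of the choroid plexus list and 3 of each other list by smallest p, genes that name a pathway, the nearest chromosomal neighbours, and the 8 nearest profiles. Cab39l and Atp1b1 in the choroid plexus list, Foxj1 and P2ry12 were added after their values were seen. 1 TCD host library of the sorted cells has a second label in its description that names its group Syn, and it was kept in the group of its title.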

Additional observations from a re-analysis of the deposited data

How the results depend on the processing

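Every gene of the set kept a positive log2 fold change wherever it was tested, which was all 10 genes except for 8 with the filter at 5 and 6 with the filter and a GVHD library left out. The alternatives were pseudocounts of 0.1 and 5, no filter, a filter at 5, median-of-ratios and quantile scaling, no variance trend, the replicate block and leaving out each library. Of the 10, 9 passed (limma). That count was 8 at a pseudocount of 0.1, 7 at 5, 7 of 8 tested with the filter at 5, 8 with quantile scaling, 0 without the variance trend (10 at an unadjusted p under 0.05) and 0 to 9 with 1 library left out. With no filter and without GVHD replicate 1, GVHD replicate 3 or TCD replicate 2 it was 0 (10 at an unadjusted p under 0.05 each), a setting added after seeing the data. Of the other choroid plexus genes, 11 passed, 0 without the trend (32 at an unadjusted p under 0.05) and 0 to 19 with 1 library left out. Over all genes, 46 rose and 23 fell. The split was 30 and 9 with quantile scaling, 0 and 0 without the trend (2343 at an unadjusted p under 0.05), and 0 to 59 and 0 to 64 with 1 library left out, while 30 rose at a pseudocount of 5 and 28 with the filter at 5. The cause of these shifts was not tested. The percentages of GVHD library 3 were run again under fewer settings. Median-of-ratios scaling gave medians of 84.3% and 30.5% in GVHD libraries 1 and 2. It scales all genes of a library alike, so it could not change the spread between genes. With only the 8 genes at 5 or more in every GVHD library, the medians were 84.5% and 31.8%. For the excess over TCD they were 83.1% and 29.5% with the lowest TCD value subtracted. The percentages were not run under the other alternatives.

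No pairing by the replicate numbers of the hippocampus titles was seen. Correlations of same-numbered deviations were -0.163, -0.040 and -0.183, and those of other pairs ran from -0.076 to 0.194. Whether same-numbered libraries shared a batch was not tested. With the replicate block, 7 of the 10 genes (not Folr1, Otx2 and Kl) and 4 of the other choroid plexus genes passed, and over all genes 15 rose and 1 fell. In the sorted cells Aqp1 was not tested under the filter, so 0 genes of the set passed with or without the replicate block or any library. Depth limits the TCD values of Folr1, Kcne2, Aqp1, Otx2 and Slc4a5, which rest on at most an estimated 20 reads in a library. Otx2 and Slc4a5 had 0 reads in TCD library 3. A test on counts was not run, since whole reads were not recovered.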
